A study of Homo sapiens with 4 samples.

Results

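The molecular circadian clock was examined through 10 core clock genes, taken as a fixed list of gene symbols from the 60675 genes in the count files. The list held the activators CLOCK and BMAL1 (also called ARNTL), the repressors PER1, PER2, PER3, CRY1, CRY2, NR1D1 and NR1D2, and the output activator DBP. All 10 were measured in RNA-seq libraries of LNCaP cells, an androgen-responsive prostate cancer line derived from a lymph node metastasis, and all 10 passed the filter on low counts. Every culture received 1 nM R1881, a synthetic androgen, for 72 h. The 2 vehicle cultures received it with the solvent alone, and the 2 CPI-455 cultures received it with 50 µM CPI-455, an inhibitor of the KDM5 family of histone H3 lysine 4 demethylases. The comparison asked how the transcripts of androgen-stimulated cells differed when KDM5 activity was inhibited. It was made in a single cell line, at 1 inhibitor concentration and 1 time, and no library without androgen was analysed here. A synchronization step and the clock time of harvest were not given in the sources used here, so a change of level and a shift of clock phase cannot be told apart.

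In the clock of mammalian cells, CLOCK and BMAL1 form a heterodimer that binds E-box sequences and drives transcription of the PER, CRY, NR1D and DBP genes. PER and CRY proteins then inhibit the heterodimer, which closes the main feedback loop. NR1D1 and NR1D2 encode the nuclear receptors REV-ERBα and REV-ERBβ, which repress BMAL1 from elements that they share with the activating ROR receptors, and DBP activates genes that carry a D-box. KDM5A is known as a cofactor of CLOCK and BMAL1.

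With CPI-455 both activators fell, and the repressors divided. Among the 10 genes, CLOCK, BMAL1 and NR1D2 fell, and PER1, CRY2 and NR1D1 rose. PER2, PER3, CRY1 and DBP were not called. A gene was called where the Benjamini-Hochberg adjusted p (FDR) of edgeR's quasi-likelihood test was below 0.05 and the difference was at least 2-fold. Many genes differed between these groups. Of the 17600 genes tested, 21.0% were called higher and 21.3% lower, 42.4% in all, so the 3 higher and 3 lower calls among 10 clock genes have to be read against those shares. The median log2 fold change, written throughout as CPI-455 over vehicle, was 0.55 over the 10 genes and -0.04 over all genes tested.

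The libraries differed in more than these genes. The vehicle libraries held 19623553 and 20690819 counted fragments, and the CPI-455 libraries 9522920 and 5401588, so that 1 count was worth 0.0458 to 0.198 CPM, the count scaled to the normalized library total. Across genes the log2 CPM of the vehicle pair correlated at r = 0.995 and those of the CPI-455 pair at r = 0.965. Mitochondrial transcripts made up 1.91% to 2.43% of the vehicle counts and 0.967% to 1.24% of the CPI-455 counts, and the nuclear RNA MALAT1 0.0884% to 0.114% and 4.95% to 6.49%. All 10 LNCaP markers examined were detected in every library, with a summed level of 886 to 961 CPM in the vehicle libraries, against 387 to 444 CPM in the CPI-455 libraries, and 6 of them were called lower. The 10 markers of other cell types examined summed to 18.0 to 23.4 CPM in the vehicle libraries, against 18.9 to 21.2 CPM in the CPI-455 libraries, and the basal keratin KRT5 was at 0 in every library. Of the 3 of these markers that were tested, the collagen gene COL1A1 was called higher, from 4.97 and 4.03 CPM with vehicle to 10.1 and 7.73 CPM (log2 fold change 1.00, FDR = 0.0195), and ACTA2, a smooth muscle actin gene, was lower by FDR alone (-0.87, FDR = 0.0407). The part of these differences in the results on the clock genes was not tested. CPM are shares of a library, so fewer cells of a type and less RNA per cell cannot be told apart.

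The start regions of the clock genes were searched for the elements named above. RefSeq (GRCh38.p14) promoter windows, which run from 250 bases before to 50 bases after a transcript start, were matched for all 10 genes, 15 windows in all. The E-box CACGTG was found on either strand in 7.26% of the 35116 windows of that length. It was found in 2 of the 15 windows of the clock genes, at PER1 and NR1D2, and the other NR1D2 window held none. Both stretches are shown, from base -250 to base -51, because both hold E-boxes and the genes moved in opposite directions. The PER1 stretch is chr17:8152455-8152654 on the minus strand and holds 1 E-box, at bases -173 to -168. The NR1D2 stretch is chr3:23945871-23946070 on the plus strand and holds 2, at bases -155 to -150 and -105 to -100. Capitals mark the matches.
PER1: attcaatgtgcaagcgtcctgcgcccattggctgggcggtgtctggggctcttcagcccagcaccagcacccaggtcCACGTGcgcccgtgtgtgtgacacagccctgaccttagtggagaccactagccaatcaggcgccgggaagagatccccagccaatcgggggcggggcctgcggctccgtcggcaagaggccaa
NR1D2: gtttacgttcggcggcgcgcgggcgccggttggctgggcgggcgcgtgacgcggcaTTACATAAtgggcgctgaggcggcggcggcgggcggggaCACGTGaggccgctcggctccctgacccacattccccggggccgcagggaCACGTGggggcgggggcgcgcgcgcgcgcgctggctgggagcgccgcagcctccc

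The NR1D2 stretch also holds a D-box at bases -194 to -187, read on the other strand. The D-box, searched as TTATGTAA or TTACGTAA on both strands, was found in 1.01% of all windows. It was found in 3 of the 15 windows of the clock genes, at NR1D2, PER2 and PER3. The element of ROR and REV-ERB receptors, searched as ANTNGGTCA on both strands, was found in 1.97% of all windows. It was found in 2 of the 15 windows of the clock genes, at BMAL1 and CLOCK. No match of one element overlapped a match of another. The sites are shown with their flanks because they stand at both activators and at the 2 PER genes that were not called. They lie at chr11:13277808-13277837 (plus strand, BMAL1, bases 29 to 37), chr4:55546130-55546159 (minus, CLOCK, bases -217 to -209), chr2:238288595-238288624 (minus, PER2, bases -3 to 5) and chr1:7784103-7784132 (plus, PER3, bases -177 to -170).
BMAL1: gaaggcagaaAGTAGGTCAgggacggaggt
CLOCK: ctaggccttgTGACCCACTttattcctgtc
PER2: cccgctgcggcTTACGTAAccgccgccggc
PER3: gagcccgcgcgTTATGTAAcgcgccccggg

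A match of letters is a description of the window and not of binding, which was not measured here. No window of the 10 genes held the cAMP element TGACGTCA, the heat shock element GAANNTTC or the androgen receptor hexamer AGAACA, which were found in 1.85%, 6.77% and 14.8% of all windows.

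**Figure D1:**
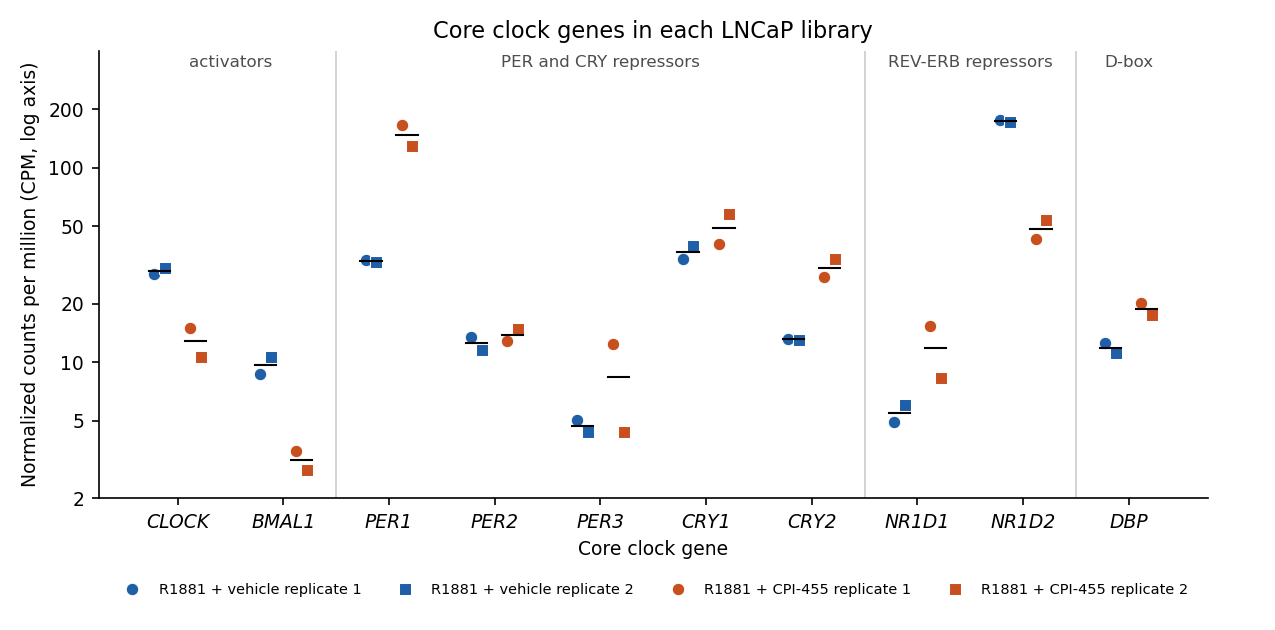
Level of each core clock gene in each of the 4 libraries, in TMM-normalized CPM on a log axis, with blue points for vehicle, orange points for CPI-455 and short black lines at the group means. BMAL1, CLOCK and NR1D2 stood lower in both CPI-455 libraries, PER1, CRY1, CRY2, NR1D1 and DBP stood higher in both, and PER2 and PER3 overlapped.

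The activators were the positive limb of the loop, and both fell. BMAL1 (chromosome 11, 13276652 to 13387266, plus strand of GRCh38), which encodes the bHLH-PAS partner that cycles in most tissues, was at 8.66 and 10.6 CPM with vehicle and at 3.49 and 2.78 CPM with CPI-455. The groups did not overlap, and the means were 9.64 ± 1.39 and 3.13 ± 0.502 CPM (SD, n = 2 each), 3.02-fold lower under the inhibitor. The log2 fold change was -1.60 (SE 0.32, 95% interval -2.32 to -0.87, FDR = 0.00205). Its 14 counts in CPI-455 replicate 2 were the lowest count of the 10 genes in any library, with an exact 95% Poisson interval of 7.65 to 23.5 counts. Without vehicle replicate 2 the log2 fold change was -1.48, and the call was lost (FDR = 0.05).

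CLOCK (chromosome 4, 55427903 to 55547138, minus strand), which encodes the other subunit of the heterodimer and is itself an acetyltransferase, was at 28.5 and 30.7 CPM with vehicle and at 15 and 10.7 CPM with CPI-455. Both CPI-455 libraries stood below both vehicle libraries, with means of 29.6 ± 1.51 and 12.8 ± 3.0 CPM, 2.26-fold lower under the inhibitor. The log2 fold change was -1.18 (SE 0.21, 95% interval -1.65 to -0.71, FDR = 0.000949). In this comparison the fold change moved with exon length and GC content over all genes. With that trend removed, CLOCK was at -0.66 (FDR = 0.0176) and no longer at 2-fold, and BMAL1 was at -1.16 (FDR = 0.00998) and remained called.

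The PER genes, whose proteins carry the inhibitory complex, differed from each other. PER1 (chromosome 17, 8140472 to 8156506, minus strand), an early response gene among the PER genes, rose most of the 10. It was at 33.5 and 32.8 CPM with vehicle and at 166 and 129 CPM with CPI-455, so that the lower CPI-455 library was well above both vehicle libraries. The means were 33.2 ± 0.487 and 148 ± 26.1 CPM, 4.47-fold higher with CPI-455, and the log2 fold change was 2.16 (SE 0.15, 95% interval 1.82 to 2.49, FDR = 3.24e-06). Removing the length and GC trend left 2.17.

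PER2 (chromosome 2, 238244038 to 238290102, minus strand), the PER gene most needed for the rhythm, was at 13.5 and 11.6 CPM with vehicle and at 12.8 and 14.9 CPM with CPI-455. The groups overlapped, and the log2 fold change of 0.13 (SE 0.23, 95% interval -0.39 to 0.64, FDR = 0.647) spanned 0. Scaling by library totals turned its sign, to -0.06. PER3 (chromosome 1, 7784320 to 7845177, plus strand), which is largely dispensable for the rhythm, was at 5.02 and 4.40 CPM with vehicle and at 12.4 and 4.36 CPM with CPI-455. Here the CPI-455 libraries disagreed, one above and one below both vehicle libraries. The log2 fold change was 0.89 (SE 0.43, 95% interval -0.08 to 1.86, FDR = 0.0998) and rested on CPI-455 replicate 1, since it was -0.13 without that library and 1.35 without the other. With the trend removed it was 1.36 and called (FDR = 0.0161). Of the PER3 exon bases 16.7% also lie in exons of UTS2 or of a gene without a symbol, both on the other strand. UTS2 had 0 counts in all libraries. The gene without a symbol had 2 and 0 counts in the vehicle libraries and 1 and 0 in the CPI-455 libraries.

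The CRY genes encode the flavoprotein repressors. CRY2 (chromosome 11, 45847118 to 45883248, plus strand) was at 13.2 and 13.0 CPM with vehicle and at 27.6 and 33.9 CPM with CPI-455. The CPI-455 libraries lay far above a tight vehicle pair, with means of 13.1 ± 0.111 and 30.7 ± 4.49 CPM, 2.33-fold higher, and a log2 fold change of 1.22 (SE 0.19, 95% interval 0.79 to 1.66, FDR = 0.000456). CRY1 (chromosome 12, 106991364 to 107093829, minus strand), the stronger repressor of the pair, was at 33.9 and 39.7 CPM with vehicle and at 40.8 and 57.7 CPM with CPI-455. Its groups did not overlap, but the upper vehicle library stood close to the lower CPI-455 library. The log2 fold change of 0.41 (SE 0.19, 95% interval -0.02 to 0.83, FDR = 0.0853) did not pass the test, and with the trend removed it was 0.82 (FDR = 0.00241), under 2-fold.

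The REV-ERB genes moved in opposite directions. NR1D2 (chromosome 3, 23945260 to 23980618, plus strand) was the most abundant clock gene with vehicle, at 177 and 172 CPM, and was at 43.0 and 53.7 CPM with CPI-455. With means of 174 ± 3.82 and 48.3 ± 7.62 CPM it was 3.64-fold lower with CPI-455, the deepest fall of the 10, and the log2 fold change was -1.86 (SE 0.14, 95% interval -2.18 to -1.55, FDR = 4.96e-06). It was -1.35 with the trend removed and was called under each alternative setting run. NR1D2 and PER1, whose windows hold the E-boxes shown above, thus moved in opposite directions.

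NR1D1 (chromosome 17, 40092787 to 40100725, minus strand) was at 4.92 and 6.0 CPM with vehicle and at 15.4 and 8.33 CPM with CPI-455. Both CPI-455 libraries were above both vehicle libraries but differed from each other by more than the vehicle level, with means of 5.46 ± 0.76 and 11.9 ± 5.01 CPM. The log2 fold change was 1.15 (SE 0.33, 95% interval 0.40 to 1.90, FDR = 0.0135), 2.22-fold higher. This call rested on single libraries: it was lost without vehicle replicate 1 (0.97, FDR = 0.109) and without CPI-455 replicate 1 (0.59, FDR = 0.0887). It was also under 2-fold with the trend removed (0.89, FDR = 0.0253). Of the NR1D1 exon bases 9.5% lie in exons of THRA on the other strand. THRA was at 47.2 and 41.9 CPM with vehicle and at 17.2 and 11.3 CPM with CPI-455 (log2 fold change -1.61, FDR = 0.00014). The fragments were counted without strand and those in exons of both genes were dropped, so the counts do not cover that stretch.

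DBP (chromosome 19, 48630030 to 48637438, minus strand), the PAR bZIP activator of D-box genes and a direct target of the heterodimer, was at 12.5 and 11.2 CPM with vehicle and at 20.2 and 17.6 CPM with CPI-455. The groups did not overlap, and the means were 11.8 ± 0.904 and 18.9 ± 1.83 CPM. At a log2 fold change of 0.69 (SE 0.21, 95% interval 0.21 to 1.17, FDR = 0.0182) DBP passed the FDR threshold but was 1.61-fold higher, under the fold threshold. It did not pass the FDR threshold with scaling by library totals (0.50, FDR = 0.0688) or with no filter on low counts (0.53, FDR = 0.0826). Of its exon bases 10.1% are shared with SPHK2 on the other strand, which fell (log2 fold change -1.63, FDR = 0.000117).

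By FDR alone, with no minimum fold, 4 of the 10 genes were higher (29.8% of all genes tested) and 3 were lower (32.8%), against 62.6% of all genes in either direction. In 5 both CPI-455 libraries were above both vehicle libraries (39.1% of all genes) and in 3 they were below (42.8%), and the groups did not overlap for 81.9% of all genes. The 3 genes that fell had a GC content over their exons of 38.9% (CLOCK), 44.9% (BMAL1) and 39.2% (NR1D2). The 3 that rose were at 61.9% (PER1), 55.2% (CRY2) and 59.5% (NR1D1), so GC content moved with the direction of these calls. The 4 genes not called were at 42.9% (CRY1), 43.7% (PER3), 52.6% (PER2) and 58.3% (DBP). Their log2 fold changes were all positive in the main fit, also at CRY1 and PER3, whose GC content was below that of BMAL1. With the trend removed, the calls were PER1, PER3 and CRY2 higher and BMAL1 and NR1D2 lower.

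**Figure D2:**
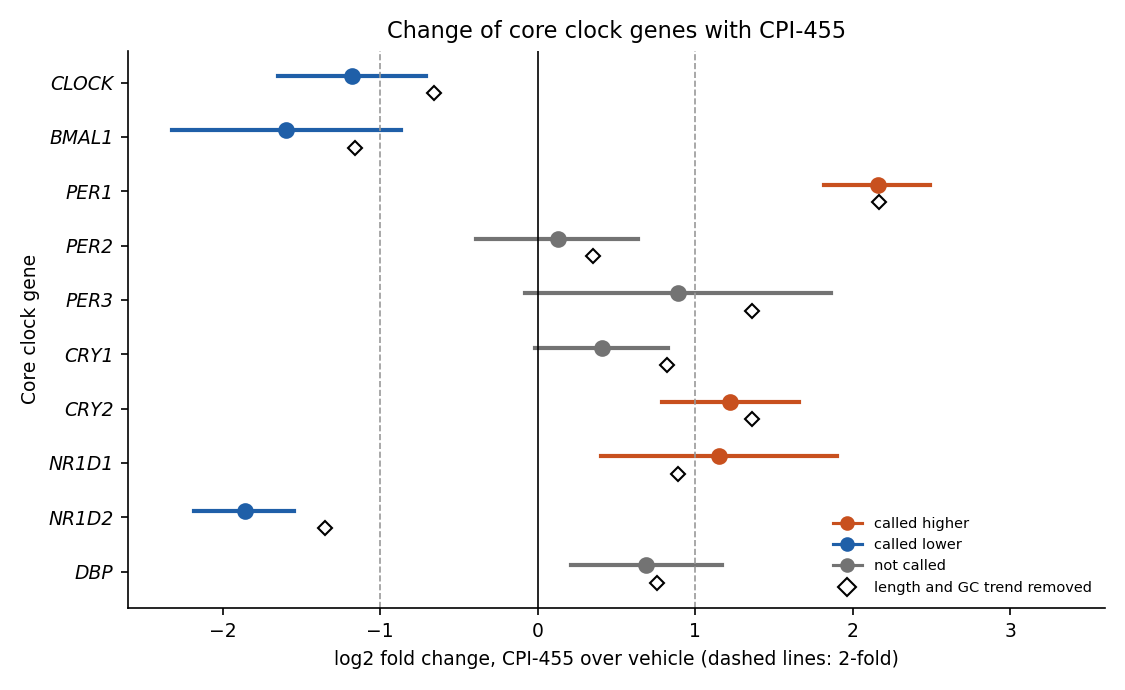
Log2 fold change of each core clock gene, CPI-455 over vehicle, with its 95% interval from edgeR (n = 2 each), and open diamonds for the value with the length and GC trend removed. Orange points were called higher, blue points lower and grey points neither, and CLOCK and NR1D1 lie within 2-fold once the trend is removed.

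The order of the levels changed. Per kilobase of exon, the vehicle means ran from NR1D2 at 30 CPM per kb through CRY1 (7.26), PER1 (4.74), CLOCK (2.52), CRY2 (2.11), NR1D1 (1.97), PER2 (1.83), DBP (1.80) and BMAL1 (1.43) to PER3 (0.581). CRY2 overlapped NR1D1, and NR1D1, PER2 and DBP overlapped each other, so their order is not resolved. With CPI-455 the order was PER1 (21.1 CPM per kb), CRY1 (9.73), NR1D2 (8.31), CRY2 (4.96), NR1D1 (4.28), DBP (2.89), PER2 (2.01), CLOCK (1.09), PER3 (1.03) and BMAL1 (0.466). There CRY1 overlapped NR1D2, NR1D1 overlapped CRY2 and DBP, and CLOCK overlapped PER3. PER1 thus passed NR1D2 as the gene with the highest level, and CLOCK went from the fourth place to the eighth or, given its overlap with PER3, the ninth.

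Activators and repressors were then set against each other within each library, which needs no scaling between libraries. The mean log2 level per exon length of CLOCK and BMAL1, minus that of the 7 repressors, was -0.91 and -0.71 in the vehicle libraries and -2.67 and -2.88 in the CPI-455 libraries. The groups did not overlap, and neither did those of 81.9% of all genes taken singly in CPM. The group means of -0.81 ± 0.14 and -2.77 ± 0.14 differed by -1.96. With 2 libraries against 2, a two-sided exact permutation test cannot give a p under 0.333, so no p is given for these ratios. Both activators were called lower, while of the 7 repressors 3 were called higher, 1 lower and 3 were not called. Over all genes tested 21.0% were called higher and 21.3% lower, and these few calls have to be read against those shares. The mean log2 fold change of the repressors was 0.58. Their median, 0.89, was the value of PER3, which was not called and on which the CPI-455 libraries disagreed. NR1D2 was the only repressor called lower. Without NR1D2 the difference was -2.36, and against the PER and CRY genes alone it was -2.34. Both sets leave out the repressor that fell in these data, so the wider difference follows from that choice and adds no support. Without PER3 it was -1.94.

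Paralogs were compared in the same way. The log2 ratio of NR1D1 to NR1D2 was -4.1 and -3.77 in the vehicle libraries against -0.41 and -1.62 in the CPI-455 libraries, a difference of 2.92. The ratio of PER1 to PER2 was 1.28 and 1.47 in the vehicle libraries against 3.67 and 3.09 in the CPI-455 libraries, and that of CRY2 to CRY1 was -1.66 and -1.9 in the vehicle libraries against -0.86 and -1.06 in the CPI-455 libraries. None of these 3 ratios overlapped between the groups, and neither did 81.9% of all genes taken singly in CPM. The share over ratios of other gene pairs was not computed. The length and GC trend was not removed from these ratios, and GC content differed within the pairs, as at NR1D1 (59.5%) and NR1D2 (39.2%). The ratio of PER3 to PER2 did overlap, at -1.67 and -1.64 in the vehicle libraries against -0.29 and -2.01 in the CPI-455 libraries.

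**Figure D3:**
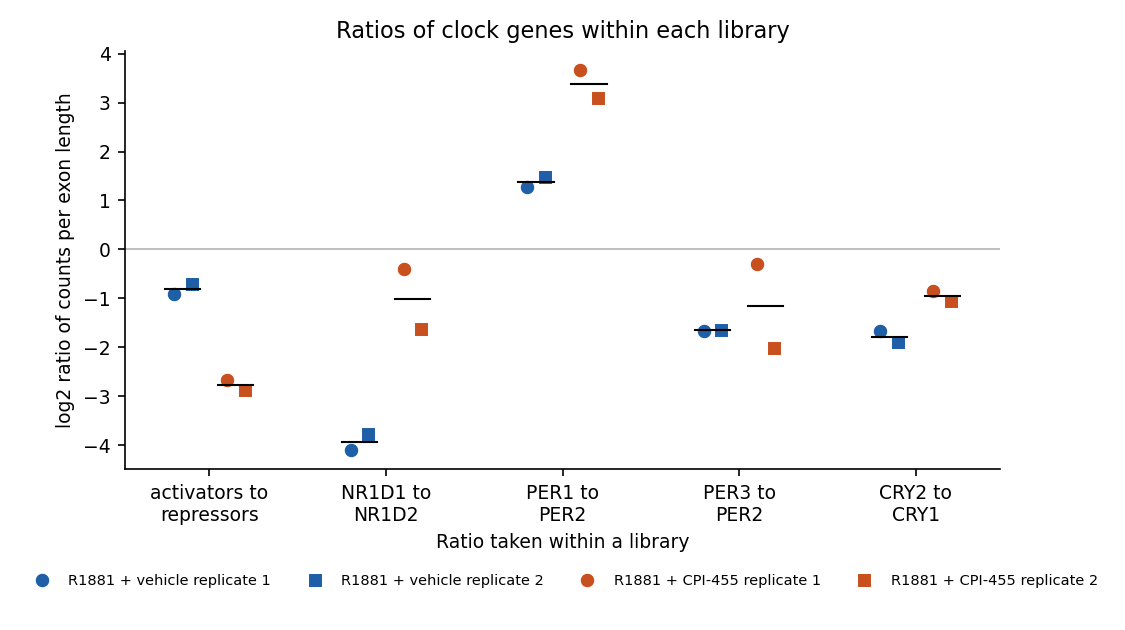
Log2 ratios of clock gene levels per exon length within each library, for activators against repressors and for paralog pairs, with blue points for vehicle, orange points for CPI-455 and black lines at the group means. Activators minus repressors went from between -0.91 and -0.71 with vehicle to between -2.88 and -2.67 with CPI-455, and PER3 to PER2 overlapped between the groups.

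Of the KDM5 genes, whose proteins CPI-455 inhibits, KDM5A, KDM5B and KDM5C were examined in the same libraries. KDM5A, the clock cofactor, was at 106 and 119 CPM with vehicle and at 188 and 197 CPM with CPI-455. Its log2 fold change was 0.77 (SE 0.12, FDR = 0.000367), under 2-fold, and 1.22 with the trend removed, which was called. KDM5B fell, from 122 and 120 CPM to 57.7 and 57.3 CPM (log2 fold change -1.07, FDR = 4.92e-05), but was at -0.67 and not called with the trend removed. KDM5C was at 0.03 (FDR = 0.829), a sign that turned to -0.16 with scaling by library totals. RNA levels do not measure the inhibited activity.

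Around the 10 genes, 60 further genes of the clock pathway, these KDM5 genes included, were examined in 10 lists. All 60 were tested, 5 were called higher, 19 lower and 36 not called, with a median log2 fold change of -0.52. Over all genes tested 21.0% were called higher and 21.3% lower, and the counts of each list below are to be read against these shares. The count of lower calls fell to 14 with the length and GC trend removed.

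Among other repressors of the loop, 2 of 4 rose (21.0% of all genes tested) and none was called lower (21.3%). CIART, a repressor of the heterodimer, was at 3.41 and 2.11 CPM with vehicle and at 21.9 and 17.8 CPM with CPI-455 (log2 fold change 2.86, FDR = 4.21e-05). These levels came from 46 to 195 counts per library. TIMELESS, a PER and CRY partner that also works at replication forks, went from 72.7 and 72.9 CPM to 366 and 346 CPM (2.29, FDR = 7.52e-07). Of the 3 ROR receptor genes, which activate BMAL1, RORB fell (-1.38, FDR = 0.00445), but was at -0.83 and not called with the length and GC trend removed, and at -1.97 without CPI-455 replicate 1. None of the 2 activator paralogs and none of the 3 other D-box factors was called.

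The stability of PER and CRY proteins sets the pace of the clock. Of 9 genes of protein turnover, 5 fell and none rose, against 21.3% and 21.0% of all genes tested, and the median of the list was -1.09 on the log2 scale (-0.04 over all genes). These included the ubiquitin ligase subunits that recognize PER, BTRC (-2.14, FDR = 3.17e-06) and FBXW11 (-1.48, FDR = 1e-05), and the deubiquitinase gene USP2 (-1.15, FDR = 0.00129), which was at -0.98 and not called with upper-quartile scaling. Of 9 clock kinase genes 1 rose and 2 fell, shares near or below the 21.0% and 21.3% of all genes tested. CSNK2B, the regulatory subunit of casein kinase 2, was at 1.70 (FDR = 1.06e-05), GSK3B at -1.88 (FDR = 9.97e-06) and CSNK1A1 at -1.47 (FDR = 1.46e-05). Of the exon bases 37.1% at CSNK2B and 37.7% at CSNK1A1 also lie in exons of other genes, where fragments were dropped. With the trend removed CSNK1A1 was at -0.93 and not called. Of 4 phosphatase genes 1 fell, PPP1CB (-1.40, FDR = 2.75e-05), which was at -0.87 and not called with the trend removed.

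Chromatin cofactors of the clock other than KDM5 numbered 17, of which 1 rose and 6 fell, against 21.0% and 21.3% of all genes tested. The acetyltransferase genes KAT2B (-2.75, FDR = 1.4e-05) and EP300 (-1.72, FDR = 3.36e-06), whose proteins are coactivators, fell, as did the deacetylase gene SIRT1 (-1.63, FDR = 8.01e-06). The gene of the REV-ERB corepressor NCOR1 rose (1.72, FDR = 2.29e-06). Of 6 output genes that the clock is known to drive, 1 rose and 3 fell, to be read against the same shares. The glucocorticoid-induced TSC22D3 was at 2.41 (FDR = 7.33e-07), the cell cycle inhibitor CDKN1A at -1.85 (FDR = 5.56e-06), the lipid enzyme GPAM at -1.78 (FDR = 7.01e-05) and the nuclear receptor PPARA at -1.76 (FDR = 3.71e-05).

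**Figure D4:**
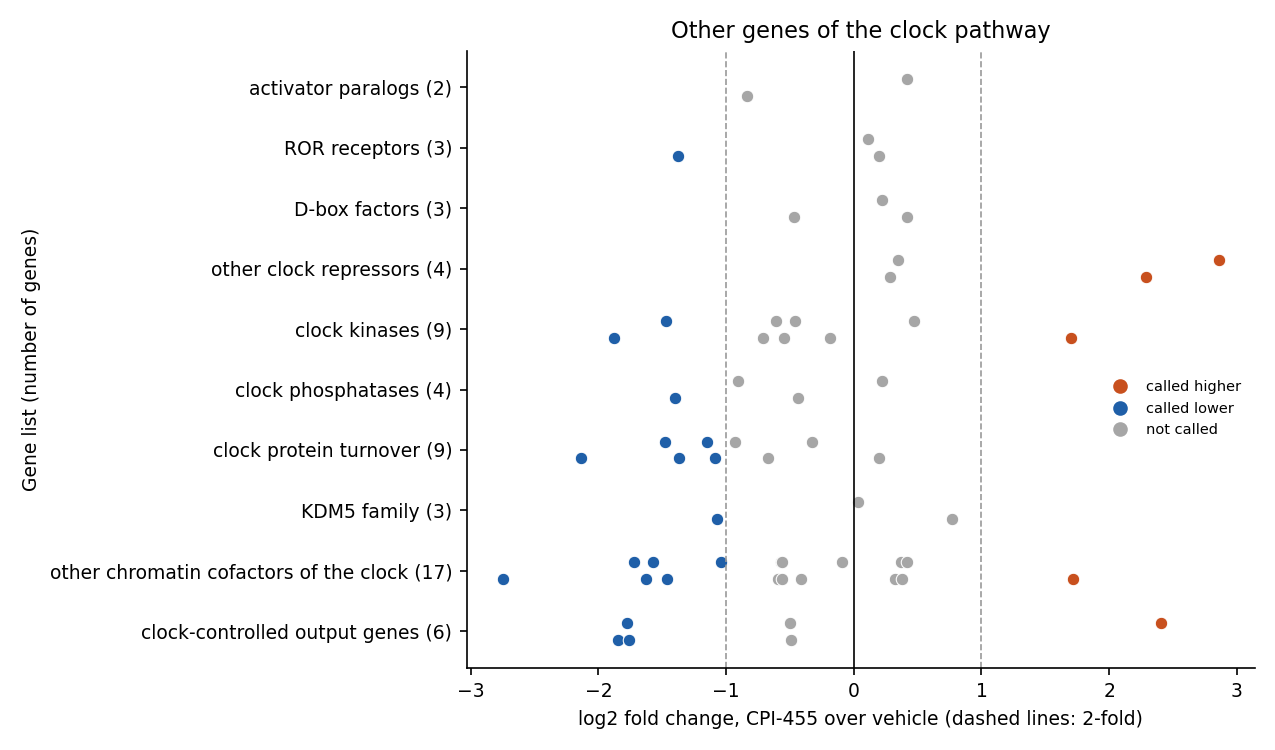
Log2 fold change, CPI-455 over vehicle, of 60 further clock pathway genes in 10 lists, 1 point per gene, with dashed lines at 2-fold. Orange points (5) were called higher, blue points (19) lower and grey points (36) neither, and no gene of the turnover list was called higher.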

How the data were processed

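Paired-end RNA-seq fragments of 4 LNCaP cultures, 2 per group, were counted per gene by the authors, and the deposited values are raw counts. Per the study's methods and the file headers, reads were trimmed with TrimGalore, aligned to GRCh38 with STAR and assigned to Ensembl release 83 genes with featureCounts v1.5.0-p1, without strand, so that fragments in exons of 2 genes or at several places were dropped. Symbols were taken from GENCODE v44 by Ensembl identifier.

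Genes were filtered with filterByExpr (minimum count 10), scaled by TMM and tested with edgeR 4.0.16 (R 4.3.3) quasi-likelihood fits over 17600 genes. Intervals on counts cover counting error only. The step was tested on simulated counts with 200 changed genes, balanced in direction, and no length or GC trend. That setting does not cover data with 42.4% of genes called and such a trend. Alternatives were other scalings, no filter, DESeq2 1.42.0, a replicate block, each library left out, and removal of the trend of the fold change with GC content and exon length, fitted by mgcv 1.9.3. Named were the 10 clock genes, the KDM5 genes, genes sharing their exons, and the up to 4 called genes per list with the largest log2 fold change; a gene that this rule names is not reported here. The genes and lists were chosen with earlier results of these data known. The cultures are described as biological replicates, and p-values measure the spread between these. Sources differ on the DMSO share. Promoter sequences are from RefSeq (GRCh38.p14).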

Additional observations from a re-analysis of the deposited data

How the results depend on the processing

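PER1, CRY2 and NR1D2 kept their direction and call under every setting run. With the length and GC trend removed, CLOCK was at -0.66 and NR1D1 at 0.89, neither called, and PER3 at 1.36, called; with the replicate block added to that trend they were at -0.68, 0.86 and 1.19. NR1D1 was also not called with scaling by library totals (0.96) or with no filter on low counts (0.99). PER2 reversed to -0.06 and -0.03 under those 2 settings and KDM5C to -0.16 and -0.12, while the median log2 fold change of all genes moved from -0.04 to -0.23 and -0.41. The difference of the mean log2 fold changes of activators and repressors, -1.97, was -1.71 with the trend removed and -1.69 with block and trend. Leaving out 1 library at a time gave -1.81 to -1.48 for BMAL1, -0.02 to 0.22 for PER2, -0.13 to 1.35 for PER3, 0.59 to 1.45 for NR1D1 and -0.12 to 0.11 for KDM5C, where a group left with 1 library was assumed to vary like the other. The causes were not tested. No pairing of same-numbered libraries was stated. Their deviations from the group means correlated at r = 0.0496, a single value from 2 libraries per group that cannot decide whether cultures were paired. With the block as a term BMAL1 was at -1.59 and no call among the 10 genes changed. CPI-455 replicate 2 had the lowest total, 5401588 counts, with 14 counts for BMAL1 and 22 for PER3. The part of depth in the spread of these genes was not tested.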
